A study of Homo sapiens with 30 samples.

Results

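The comparison concerned how far the changes that human embryonic stem cells made during a day in Activin A differed according to whether the day before had held Wnt3a. It was read as a difference of 2 differences, (WNT_ACT minus WNT) minus (E7_ACT minus E7), in 8 of the 30 samples of the study, 2 in each of 4 groups, over all 17793 genes that passed the filter on low counts. The first difference is called the WNT arm here and the second the E7 arm. All samples were of RUES2, a human embryonic stem cell line, grown in E7 medium with a ROCK inhibitor and without CPI-203, the bromodomain inhibitor that other groups of the study received. E7 cells had medium alone and were collected at 24 h. E7_ACT cells had medium alone on day 1 and Activin A at 10 ng/mL on day 2, and were collected at 48 h. WNT cells had Wnt3a at 100 ng/mL on day 1 and were collected at 24 h. WNT_ACT cells had that Wnt3a day followed by a day of Activin A, and were collected at 48 h. A further group, WNT_E7, had the Wnt3a day followed by medium alone until 48 h, and served as a second reference for WNT_ACT. The labels do not say whether the 2 samples of a group were separate cultures. The p-values rest on the spread left after a shared difference between the replicate numbers was fitted, estimated over the 15 RNA samples used. They do not measure the whole gap between the 2 samples of a group, and the spread may be technical. The use of 1 line limits the results to that line.

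Wnt3a is a secreted ligand that stabilises beta-catenin, which acts on DNA through TCF/LEF factors. Activin A binds the same receptors as Nodal and sends SMAD2 and SMAD3 to the nucleus, where they need partner factors such as FOXH1 or EOMES to choose their targets. In the embryo, Wnt and Nodal signals together set up the primitive streak, from which mesoderm and definitive endoderm arise, and in pluripotent cells low Nodal or Activin signalling also supports NANOG and the undifferentiated state. EOMES is a T-box transcription factor of the streak and of endoderm, and APLNR, the apelin receptor, is a surface protein of early mesoderm.

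The 8 samples held 36268324 to 42394430 counts each, and 15737 to 16327 genes had at least 10 counts. Levels below are CPM, counts put on a common library size by edgeR's scaling, given for replicate 1 and then replicate 2, and changes are log2 values with their standard error (SE), over 2 samples per group. A positive contrast means that the change over the Activin A day was more positive after Wnt3a. Because the 24 h and 48 h collections lie in both arms, time cancels only if its effect is the same in both, and no group had medium alone for 48 h without Wnt3a. In the E7 arm Activin A and time therefore cannot be told apart, and in the WNT arm Activin A came together with the withdrawal of Wnt3a. Genes of chromosome 22 could not be seen, since 625 of 626 had no count.

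With the replicate number as a block, 114 of 17793 genes (0.641%) had a contrast past an adjusted p of 0.05 by edgeR's quasi-likelihood test. Of these, 66 were above 0 (0.371% of genes tested) and 48 below 0 (0.27%). All 114 had the same sign in both replicates, but a call from these same samples makes that likely, so it tests nothing. Each arm held many more calls than the difference between them. After Wnt3a, 1648 genes changed over the Activin A day (9.26%), of which 1029 rose (5.78%) and 619 fell (3.48%). Without Wnt3a, 741 changed (4.16%), of which 452 rose (2.54%) and 289 fell (1.62%). At an unadjusted p under 0.05, 1757 genes were past the threshold in the contrast. The number of calls depended on the block: without it, 1 gene (FLRT2) was called. It also depended on single samples, and lay between 12 (without WNT replicate 1, or without E7_ACT replicate 1) and 225 (without WNT_ACT replicate 2) when 1 sample was left out.

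The 114 genes fell into 8 patterns by their calls in the arms, and the commonest was a rise after Wnt3a with no call without it, in 48 genes. Another 24 rose without Wnt3a and had no call after it, and 14 fell after Wnt3a and had no call without it. A further 10 fell without Wnt3a and had no call after it. Calls in opposite directions were made for 7 genes that rose after Wnt3a and fell without it, and for 6 that fell after Wnt3a and rose without it. A further 4 genes rose in both arms, and rose more without Wnt3a. The remaining 1 gene fell in both arms, and fell more without Wnt3a. The median change of the 66 genes above 0 was 1.72 after Wnt3a and -0.51 without it. That of the 48 below 0 was -0.36 after Wnt3a and 1.09 without it, against medians of -0.019 and -0.0003 over all genes tested. These medians describe genes selected by the same contrast and test nothing.

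**Figure D1:**
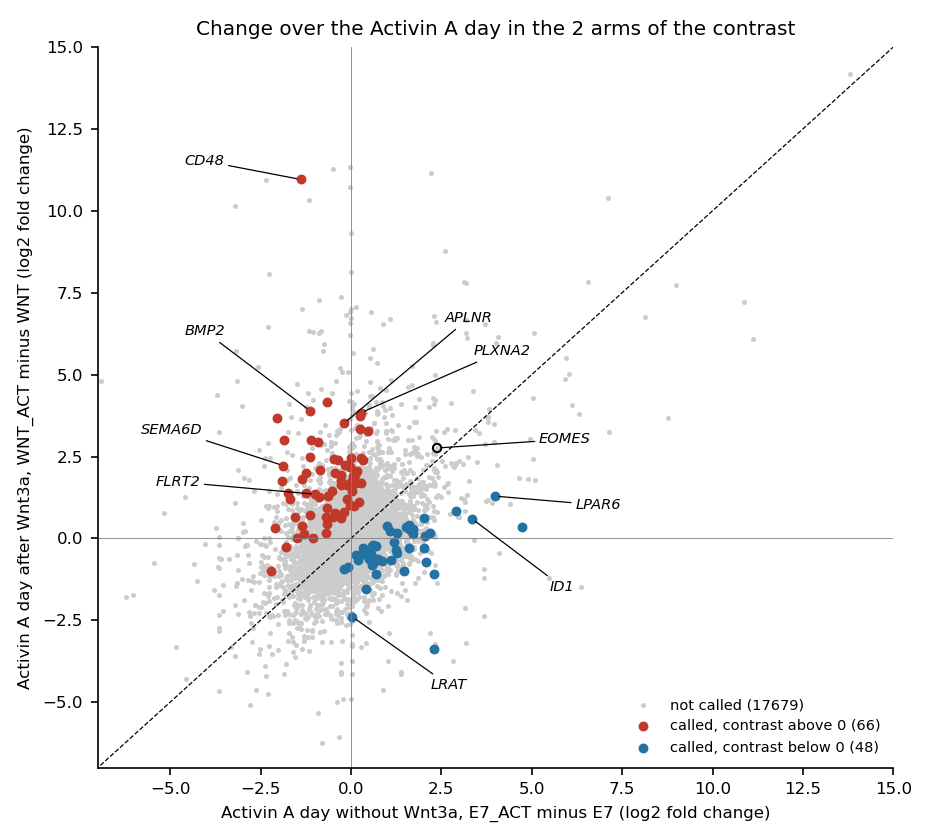
Change over the Activin A day without Wnt3a (x axis, log2) against the change after Wnt3a (y axis, log2), 1 point per gene tested; the dashed line marks equal changes. The 66 genes called above 0 (red) lie above the line, many near 0 on the x axis, the 48 called below 0 (blue) lie below it, and EOMES (open circle, 2.38 and 2.76) lies close to it.

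The 2 marker genes of the system differed in how they met this contrast. EOMES stood at 0.263 and 0.0959 in E7, 1.64 and 0.305 in E7_ACT, 38.8 and 24.1 in WNT and 482 and 84 in WNT_ACT CPM. Both WNT samples were above both E7_ACT samples, and both WNT_ACT samples were above all others. Over the Activin A day EOMES rose after Wnt3a, by 2.76 (SE 0.46, adjusted p = 0.00593). Without Wnt3a its value was 2.38 (SE 1.12, adjusted p = 0.318), from levels under 2 CPM. The contrast was 0.38 (SE 1.45, adjusted p = 0.98), and its sign turned to -0.16 without WNT replicate 1 and to -0.29 without WNT_ACT replicate 1. On the log scale, a difference in the response of EOMES to the Activin A day was therefore not detectable in these samples, although both WNT_ACT samples were above both E7_ACT samples.

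APLNR stood at 0.812 and 1.1 in E7, 0.482 and 1.19 in E7_ACT, 2.58 and 4.02 in WNT and 51.5 and 25.9 in WNT_ACT CPM. Both WNT_ACT samples were above every other sample of the contrast, and E7_ACT overlapped E7. Its change was 3.51 (SE 0.42, adjusted p = 0.00153) after Wnt3a and -0.19 (SE 0.57, adjusted p = 0.917) without it. The contrast was 3.7 (SE 0.7, adjusted p = 0.0482), with 4.99 in replicate 1 and 2.57 in replicate 2. This call lay at the edge of the threshold: the adjusted p was 0.0508 with DESeq2 size factors, 0.0529 with the stricter filter, 0.064 with only the groups compared, 0.0547 without the CPI-203 groups and 0.276 without the block. Of the receptor's ligands, APELA had 52.2 and 116 in E7, 37.5 and 41.7 in E7_ACT, 73.7 and 130.5 in WNT and 13.3 and 25.3 in WNT_ACT CPM. APELA fell after Wnt3a (-2.41 (SE 0.26, adjusted p = 0.00107)), and its contrast was -1.42 (SE 0.35, adjusted p = 0.127). In bulk RNA, fewer cells of a type and less RNA per cell cannot be told apart, here and in every result that follows.

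**Figure D2:**
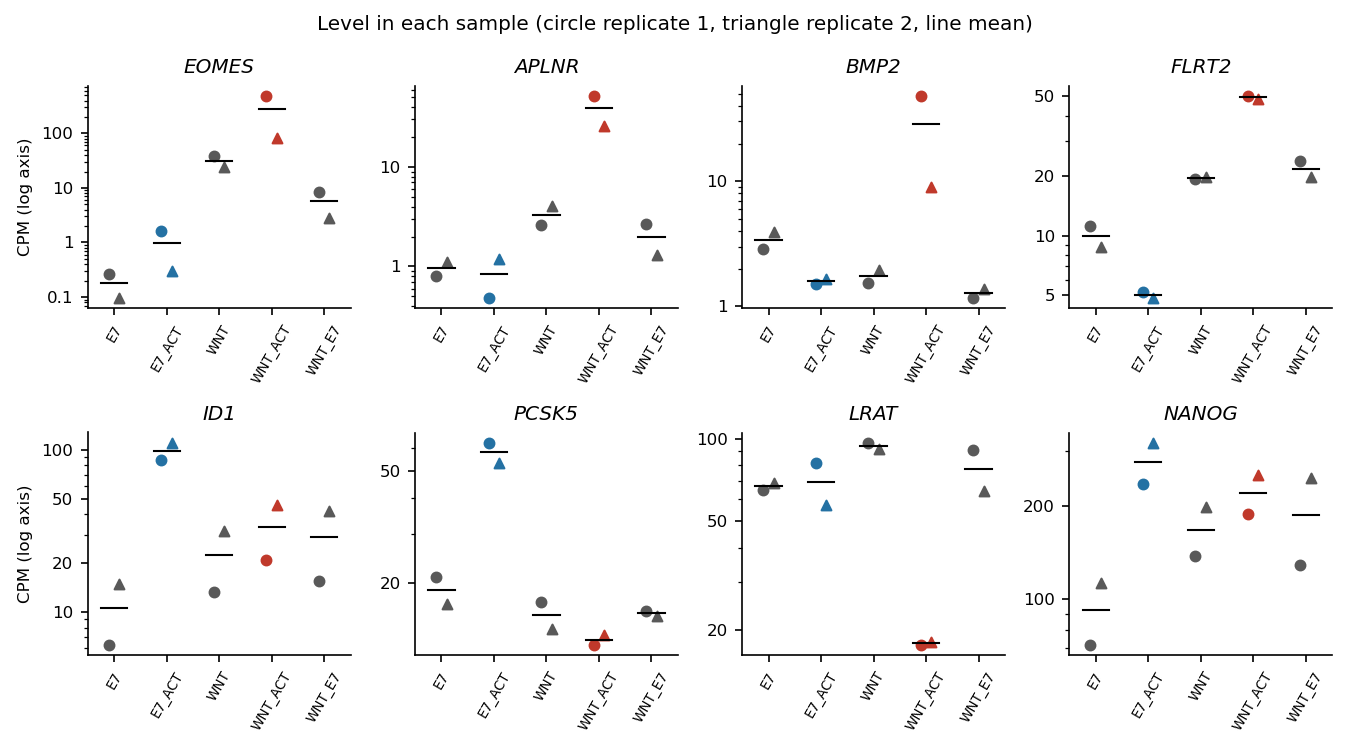
CPM on log axes in the 2 samples of E7, E7_ACT, WNT, WNT_ACT and WNT_E7 for the markers EOMES and APLNR and for 6 genes called in the contrast. APLNR, BMP2 and FLRT2 are highest in both WNT_ACT samples, ID1 and PCSK5 in both E7_ACT samples, LRAT is lowest in WNT_ACT, and NANOG is lowest in E7.

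Promoters of the genes named below were searched for the letters CTTTGA (the core of TCF/LEF sites), AATNCACA (a FOXH1 motif) and GGTGTGA (a T-box site), on both strands. The windows were RefSeq promoters of GRCh38.p14, 250 bases before to 50 after the start, and 20 of the 25 genes (the 2 markers and the genes with the largest contrasts) had one. CTTTGA was in 2 of the 20, against 12.9% of 35116 promoters, AATNCACA in 0 against 3.31%, and GGTGTGA in 1 against 3.45%. Those 3 promoters are shown, with EOMES, which held none of the motifs, as the marker of the system. Capitals mark the matches, in either orientation, and each sequence is written 5′ to 3′ on the gene's strand.
SEMA6D, chr15:47183839-47184138, plus strand: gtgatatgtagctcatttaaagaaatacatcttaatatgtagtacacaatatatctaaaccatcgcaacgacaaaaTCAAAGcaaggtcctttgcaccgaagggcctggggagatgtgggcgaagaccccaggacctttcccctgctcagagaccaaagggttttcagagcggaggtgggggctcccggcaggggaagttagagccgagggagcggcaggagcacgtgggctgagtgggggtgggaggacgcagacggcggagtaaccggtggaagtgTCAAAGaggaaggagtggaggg
GABRB2, chr5:161546676-161546975, minus strand: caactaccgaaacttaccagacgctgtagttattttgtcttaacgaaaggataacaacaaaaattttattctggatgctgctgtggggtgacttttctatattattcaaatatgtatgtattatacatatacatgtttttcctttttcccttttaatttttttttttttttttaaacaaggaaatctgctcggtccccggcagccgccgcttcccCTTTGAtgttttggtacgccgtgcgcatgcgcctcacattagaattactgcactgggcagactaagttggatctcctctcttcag
FOXB1, chr15:60004061-60004360, plus strand: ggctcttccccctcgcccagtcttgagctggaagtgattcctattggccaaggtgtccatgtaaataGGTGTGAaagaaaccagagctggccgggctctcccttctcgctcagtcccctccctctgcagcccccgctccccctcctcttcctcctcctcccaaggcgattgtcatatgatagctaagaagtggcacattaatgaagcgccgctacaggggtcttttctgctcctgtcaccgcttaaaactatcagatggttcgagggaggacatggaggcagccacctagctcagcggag
EOMES, chr3:27722274-27722573, minus strand: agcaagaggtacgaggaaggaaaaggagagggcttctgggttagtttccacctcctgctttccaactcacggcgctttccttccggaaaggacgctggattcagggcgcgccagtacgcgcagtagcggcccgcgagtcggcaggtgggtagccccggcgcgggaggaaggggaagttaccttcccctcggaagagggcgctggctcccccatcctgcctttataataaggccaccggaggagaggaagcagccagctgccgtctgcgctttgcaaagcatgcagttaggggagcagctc
The first 2 genes had contrasts above 0 and FOXB1 below 0. A match is a description of letters in these windows, and no match says nothing of binding elsewhere.

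The genes with the largest contrasts above 0 included a ligand and several surface receptors. Genes named here and below for their contrast were selected in these same samples. That 1 group lies apart from the others in them is therefore likely and tests nothing. BMP2, a ligand of the BMP pathway, stood at 2.89 and 3.91 in E7, 1.52 and 1.65 in E7_ACT, 1.53 and 1.97 in WNT and 47.9 and 9.04 in WNT_ACT CPM. Only the WNT_ACT samples were above 5 CPM, and replicate 1 was over 5 times replicate 2. BMP2 rose after Wnt3a (3.89 (SE 0.66, adjusted p = 0.0063)), was not called without it (-1.12 (SE 0.64, adjusted p = 0.426)), and had a contrast of 5.02 (SE 0.91, adjusted p = 0.0414). That call was lost with only the groups compared (adjusted p = 0.0646). GABRB2, a subunit of the GABA-A receptor, had 1.5 and 0.959 in E7, 0.434 and 0.28 in E7_ACT, 3.64 and 2.36 in WNT and 56.1 and 7.93 in WNT_ACT CPM and a contrast of 4.86 (SE 0.91, adjusted p = 0.046), with adjusted p = 0.0505 with the stricter filter and 0.058 with only the groups compared. In this gene too the WNT_ACT samples were above all others and far apart from each other. EPHB3, a receptor for ephrin-B ligands, had 1.55 and 1.77 in E7, 0.626 and 1.14 in E7_ACT, 3.43 and 2.67 in WNT and 33.1 and 15.2 in WNT_ACT CPM. Its contrast was 3.86 (SE 0.62, adjusted p = 0.0274), with a rise of 2.95 after Wnt3a and -0.91 (not called) without it.

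PLXNA2, a plexin that receives semaphorin signals, stood at 3.22 and 1.63 in E7, 3.33 and 2.36 in E7_ACT, 4.61 and 3.01 in WNT and 94.5 and 26.3 in WNT_ACT CPM, and TENM4, a teneurin of cell contacts, at 12.3 and 8.85 in E7, 13.2 and 11.3 in E7_ACT, 8.67 and 8.38 in WNT and 140.1 and 50.5 in WNT_ACT CPM. In both genes E7, E7_ACT and WNT lay together and only WNT_ACT stood apart, higher in replicate 1. The contrasts were 3.56 (SE 0.53, adjusted p = 0.0201) for PLXNA2 and 3.1 (SE 0.57, adjusted p = 0.0425) for TENM4. CYP11A1, the mitochondrial enzyme that cuts the side chain of cholesterol, had 2.98 and 3.55 in E7, 0.891 and 2.82 in E7_ACT, 3.24 and 4.72 in WNT and 17.2 and 16.2 in WNT_ACT CPM and a contrast of 2.96 (SE 0.5, adjusted p = 0.0352). STK32A, a protein kinase, had 1.05 and 0.503 in E7, 1.06 and 0.991 in E7_ACT, 0.869 and 0.618 in WNT and 9.5 and 5.18 in WNT_ACT CPM and a contrast of 2.81 (SE 0.4, adjusted p = 0.0193). For both genes the 2 WNT_ACT samples lay above all 6 others. CD48, a surface protein known from blood cells, had 453 and 67 counts in WNT_ACT, 0 in both WNT samples, 16 and 10 in E7 and 6 and 4 in E7_ACT. It was called (adjusted p = 0.0352), but with WNT at 0 the size of its fitted contrast depends on the prior count and is not given.

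Some of the called genes moved in opposite directions in the arms. SEMA6D, a semaphorin (a ligand of plexins), stood at 9.55 and 3.5 in E7, 2.34 and 1.09 in E7_ACT, 1.25 and 0.506 in WNT and 5.93 and 2.38 in WNT_ACT CPM. It fell without Wnt3a (-1.87 (SE 0.28, adjusted p = 0.00469)) and rose after it (2.22 (SE 0.3, adjusted p = 0.00242)), for a contrast of 4.09 (SE 0.41, adjusted p = 0.00341). In each replicate WNT_ACT was below E7, and the rise began in WNT at a level below that of E7. LRP2, the endocytic receptor megalin, had 4.66 and 7.17 in E7, 1.23 and 2.54 in E7_ACT, 4.61 and 7.73 in WNT and 12.1 and 15.3 in WNT_ACT CPM, with changes of 1.19 after Wnt3a and -1.67 without it and a contrast of 2.86 (SE 0.35, adjusted p = 0.00665). WSCD2 had 3.7 and 2.97 in E7, 1.08 and 0.915 in E7_ACT, 2.75 and 2.98 in WNT and 11 and 4.6 in WNT_ACT CPM and a contrast of 3.12 (SE 0.47, adjusted p = 0.0201). FLRT2, an adhesion protein and guidance ligand, was chosen after its values were seen, as the gene with the smallest p. It had 11.2 and 8.8 in E7, 5.2 and 4.85 in E7_ACT, 19.1 and 19.7 in WNT and 50.2 and 48.7 in WNT_ACT CPM, with no overlap between any 2 of the 4 groups, and a contrast of 2.34 (SE 0.17, adjusted p = 0.000841).

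The genes whose change was more positive without Wnt3a included ID1 and PCSK5. ID1, an inhibitor of basic helix-loop-helix factors and a known target of BMP signals, stood at 6.3 and 14.8 in E7, 86.6 and 111 in E7_ACT, 13.3 and 31.4 in WNT and 21 and 45.8 in WNT_ACT CPM. Both E7_ACT samples were above all others, and WNT and WNT_ACT overlapped. ID1 rose without Wnt3a by 3.35 (SE 0.25, adjusted p = 0.000177), and after Wnt3a its value was 0.59 (SE 0.23, adjusted p = 0.147). The contrast was -2.76 (SE 0.34, adjusted p = 0.00665). PCSK5, a convertase that cuts the precursors of TGF-beta family ligands, had 21.1 and 16.9 in E7, 62.9 and 53.3 in E7_ACT, 17.2 and 13.8 in WNT and 12.2 and 13.2 in WNT_ACT CPM and a contrast of -1.9 (SE 0.17, adjusted p = 0.00272). It rose only in the E7 arm by its calls, by 1.61, with -0.28 after Wnt3a.

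Other members of that group were receptors, enzymes and transcription factors. LPAR6, a receptor for lysophosphatidic acid, had 0.812 and 0.432 in E7, 16.7 and 4.8 in E7_ACT, 4.63 and 2.08 in WNT and 14.7 and 3.68 in WNT_ACT CPM; it rose in both arms, by 3.99 without Wnt3a and 1.29 after it, and its contrast was -2.7 (SE 0.51, adjusted p = 0.0469). That call was lost with DESeq2 size factors and with the stricter filter (adjusted p = 0.0529 in both). PLBD1, a phospholipase-like protein, rose in both arms as well, with 16.3 and 13 in E7, 139 and 83.2 in E7_ACT, 19 and 15.1 in WNT and 35.5 and 25.8 in WNT_ACT CPM and a contrast of -2.06 (SE 0.26, adjusted p = 0.00902). CDH6, a cadherin, had 0.979 and 1.42 in E7, 6.5 and 3.68 in E7_ACT, 1.01 and 1.77 in WNT and 0.976 and 0.688 in WNT_ACT CPM and a contrast of -2.81 (SE 0.5, adjusted p = 0.0386), with adjusted p = 0.0832 with only the groups compared. TMT1A, a methyltransferase, had 13.4 and 19 in E7, 65.8 and 65.2 in E7_ACT, 11.7 and 12.2 in WNT and 7.8 and 11.8 in WNT_ACT CPM and a contrast of -2.32 (SE 0.36, adjusted p = 0.0247). IQSEC2, an exchange factor for ARF GTPases, had 24 and 72.1 in E7, 153 and 241 in E7_ACT, 19.5 and 38.1 in WNT and 20.1 and 45.2 in WNT_ACT CPM, replicate 2 being the higher in every group, and a contrast of -2.02 (SE 0.35, adjusted p = 0.0369). MSC, the factor musculin, had 0.764 and 1.75 in E7, 3.4 and 6.91 in E7_ACT, 0.564 and 0.899 in WNT and 0.513 and 1.06 in WNT_ACT CPM and a contrast of -1.99 (SE 0.33, adjusted p = 0.0324). In CDH6, TMT1A, IQSEC2 and MSC the 2 E7_ACT samples lay above all 6 others.

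A smaller set fell over the Activin A day after Wnt3a. LRAT, which esterifies retinol, stood at 64.7 and 69.1 in E7, 81.5 and 57.1 in E7_ACT, 96.7 and 91.4 in WNT and 17.7 and 18 in WNT_ACT CPM. The 2 WNT_ACT samples agreed closely and lay below all others. LRAT fell after Wnt3a, with a change of -2.39 (SE 0.18, adjusted p = 0.000514), had 0.04 (SE 0.17, adjusted p = 0.946) without it, and had a contrast of -2.44 (SE 0.25, adjusted p = 0.00341). LRRC17 had 1.93 and 2.23 in E7, 3.28 and 2.39 in E7_ACT, 14 and 13.8 in WNT and 5.08 and 4.5 in WNT_ACT CPM and GRB14, an adaptor of the insulin receptor, 12.5 and 6.81 in E7, 19.4 and 11.8 in E7_ACT, 42.4 and 23.7 in WNT and 16.7 and 13.6 in WNT_ACT CPM. Both were higher in WNT than in E7 and fell again in WNT_ACT, with contrasts of -1.97 (SE 0.31, adjusted p = 0.0247) and -1.79 (SE 0.26, adjusted p = 0.0193). FOXB1, a forkhead factor, had 2.29 and 0.839 in E7, 6.22 and 2.46 in E7_ACT, 32 and 22.1 in WNT and 16.8 and 10.8 in WNT_ACT CPM: it fell from a level raised in WNT (-0.98), rose from a low level without Wnt3a (1.46), and had a contrast of -2.44 (SE 0.42, adjusted p = 0.0369).

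**Figure D3:**
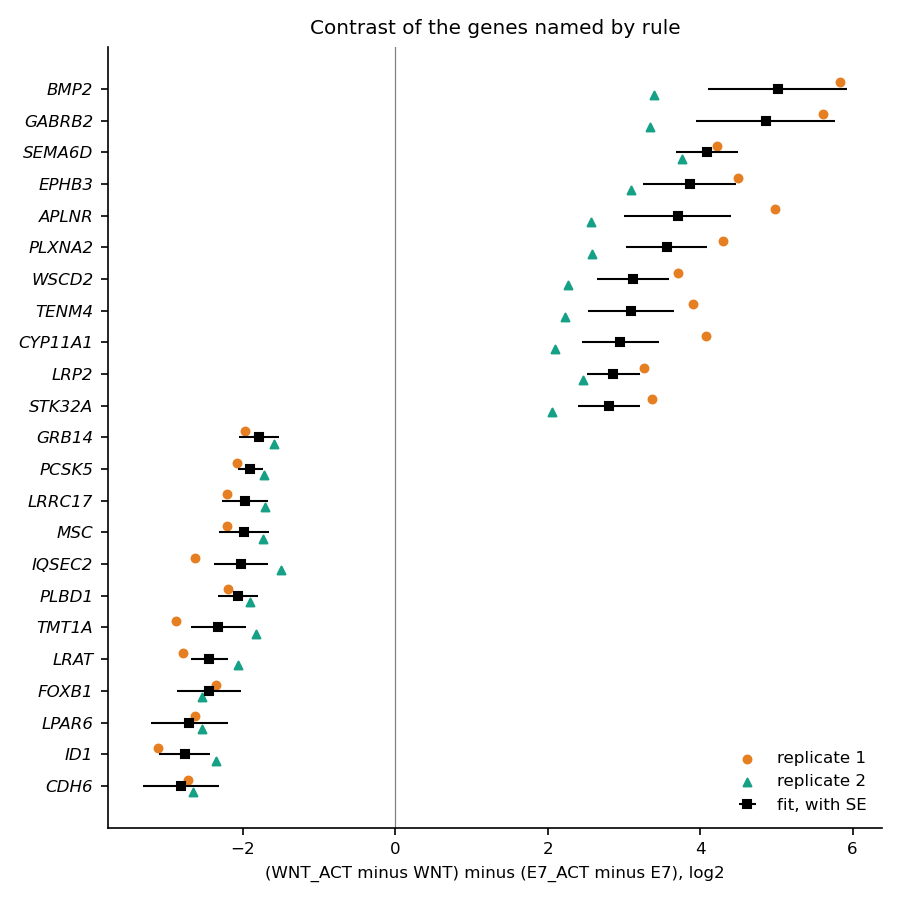
Contrast in log2 units (x axis) for 23 of the 24 genes with the largest called contrasts (CD48, at 0 counts in WNT, is left out): squares with bars are the fit and its SE, circles replicate 1 and triangles replicate 2. Every gene has both replicates on one side of 0, because the naming rule required it. Replicate 1 gives the larger value for each gene above 0, for example 5.83 against 3.39 in BMP2.

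Genes of the primitive streak and of definitive endoderm rose mostly after Wnt3a, but few passed the test of the difference. Over all genes tested, 5.78% rose and 3.48% fell after Wnt3a, and 2.54% rose and 1.62% fell without it. Of 28 tested streak and early mesoderm genes, 14 rose and 1 fell after Wnt3a, and 1 rose without it (WNT3). In the contrast 1 of 28 was called by edgeR, APLNR, beside 0.641% of all genes. DESeq2 called 4, but it called more genes than edgeR over all genes too (both totals are in the closing section on processing). Its counts in the lists, here and below, therefore cannot be set beside edgeR's 0.641%. The list median was 0.37, beside -0.025 over all genes. In the list for endoderm and the anterior streak, with 24 tested, 12 members rose after Wnt3a and 1 fell, while without it 1 rose and 3 fell. Here too 1 was called in the contrast (7 by DESeq2), CHRD, and the list median was 2.58. CHRD, which binds BMP ligands and keeps them from their receptors, had 1.74 and 0.767 in E7, 0.337 and 0.305 in E7_ACT, 1.6 and 0.787 in WNT and 5.62 and 2.51 in WNT_ACT CPM and a contrast of 3.64 (SE 0.44, adjusted p = 0.00665).

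The fitted contrasts of some uncalled members, such as FOXA2 and LHX1, were larger than that of BMP2 and had larger errors. FOXA2, a forkhead factor of endoderm, stood at 4.68 and 2.42 in E7, 0.819 and 0.152 in E7_ACT, 4.79 and 2 in WNT and 83.8 and 30 in WNT_ACT CPM, with both WNT_ACT samples above all others. It rose after Wnt3a (4.04 (SE 0.89, adjusted p = 0.0193)) and had -3.02 (SE 1.1, adjusted p = 0.18) without it. The contrast of FOXA2 was 7.05 (SE 1.39, adjusted p = 0.0568). GATA6, a GATA factor of endoderm and heart, had 0.239 and 0.0479 in E7, 0.0482 and 0.0762 in E7_ACT, 0.047 and 0.0562 in WNT and 143 and 11 in WNT_ACT CPM. It rose after Wnt3a and its contrast was not called (adjusted p = 0.198); since the WNT samples held 2 counts each, no fold is given. LHX1, a homeobox factor of the anterior streak, had 0.358 and 0.983 in E7, 0.482 and 0.711 in E7_ACT, 0.376 and 0.112 in WNT and 66.9 and 20.1 in WNT_ACT CPM and a contrast of 7.65 (SE 1.79, adjusted p = 0.108). All 3 were called with only the groups compared, with adjusted p = 0.00102 for FOXA2, 0.0223 for GATA6 and 0.0316 for LHX1. They were also called when the CPI-203 groups were left out of the fit, an alternative chosen after the data were seen, with adjusted p = 7.02e-05 for FOXA2, 0.0121 for GATA6 and 0.0177 for LHX1. With DESeq2's Wald test their adjusted p was 0.00422, 0.00582 and 0.00412.

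In the fit over all 15 RNA samples, the contrast of other streak genes could not be separated from its error. MIXL1, a homeobox factor of the streak, had 0.477 and 0.575 in E7, 4.58 and 3.99 in E7_ACT, 1.34 and 1.71 in WNT and 795 and 105 in WNT_ACT CPM and a contrast of 4.7 (SE 2.44, adjusted p = 0.593). It rose after Wnt3a, by 7.82 (SE 1.32, adjusted p = 0.0063), and the value without Wnt3a was 3.13 (SE 1.56, adjusted p = 0.354). TBXT, the brachyury factor of mesoderm, had 0.263 and 0.168 in E7, 0.386 and 0.229 in E7_ACT, 3.34 and 2.73 in WNT and 79.4 and 30.6 in WNT_ACT CPM and a contrast of 3.52 (SE 1.85, adjusted p = 0.597). With only the groups compared, edgeR gave TBXT an SE of 0.68 (adjusted p = 0.0608) and MIXL1 an SE of 1.68 (adjusted p = 0.3). SOX17, a factor of definitive endoderm, was at or under 0.0281 CPM in E7, E7_ACT and WNT and at 41.6 and 7.56 CPM in WNT_ACT. CER1, a secreted inhibitor of Nodal, BMP and Wnt, had 0 and 0 in E7, 30 and 13.1 in E7_ACT, 0.094 and 0 in WNT and 1974 and 123 in WNT_ACT CPM. Since SOX17 and CER1 had groups at or near 0 counts, no fold is given for them. The 2 WNT_ACT samples differed in these lists: the summed level of the endoderm list was 2598 CPM in replicate 1 and 336 in replicate 2, and that of the streak list 2133 and 701, while the ranges over the other 6 samples were 95.7 to 184.5 and 85.1 to 218. The part of this spread in the uncalled contrasts was not tested. A summed level rests most on its highest members, and in WNT_ACT CER1 alone had 1974 and 123 CPM and MIXL1 795 and 105.

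Of the genes of the Nodal and Activin pathway itself, 0 of 35 tested were called in the contrast by edgeR, beside 0.641% of all genes. At that share, a list of 35 is too short for a count of 0 to say anything of the pathway. At an unadjusted p under 0.05 the list held 5 genes, beside 1757 of all 17793, and DESeq2 called 1, FST. After Wnt3a, 9 rose and 2 fell (all genes 5.78% and 3.48%), and without it 10 rose and 1 fell (all genes 2.54% and 1.62%). LEFTY1, a secreted inhibitor of Nodal, had 0.191 and 0.0959 in E7, 374 and 243 in E7_ACT, 2.33 and 0.703 in WNT and 198 and 36.7 in WNT_ACT CPM and rose in both arms, with a contrast of -5.02 (SE 2.33, adjusted p = 0.522). LEFTY2, a near-identical neighbour whose reads may be split with LEFTY1, had 0.0716 and 0.0719 in E7, 142 and 128 in E7_ACT, 0.517 and 0.141 in WNT and 61.5 and 38.5 in WNT_ACT CPM. E7_ACT was the higher of the 2 Activin A groups for both genes, with no overlap. SMAD7, which blocks the receptors, had 11.1 and 14.7 in E7, 117 and 106 in E7_ACT, 14.8 and 15.7 in WNT and 41.9 and 26.9 in WNT_ACT CPM and a contrast of -1.93 (SE 0.52, adjusted p = 0.162), and was called with only the groups compared (adjusted p = 0.0312), as was FST (0.0165). NODAL, the ligand, had 1.53 and 1.63 in E7, 64 and 41.5 in E7_ACT, 31.5 and 49.5 in WNT and 303 and 153 in WNT_ACT CPM and a contrast of -2.6 (SE 1.35, adjusted p = 0.593). NODAL stood higher in WNT than in E7, so its change in the WNT arm began from a higher level. With only the groups compared, edgeR's adjusted p was 0.063 for LEFTY1, 0.0628 for LEFTY2 and 0.0815 for NODAL, so none was called. PMEPA1, a target that restrains SMAD signalling, overlapped between the 2 Activin A groups, at 61.6 and 54.5 in E7_ACT and 77.5 and 58.6 in WNT_ACT CPM.

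**Figure D4:**
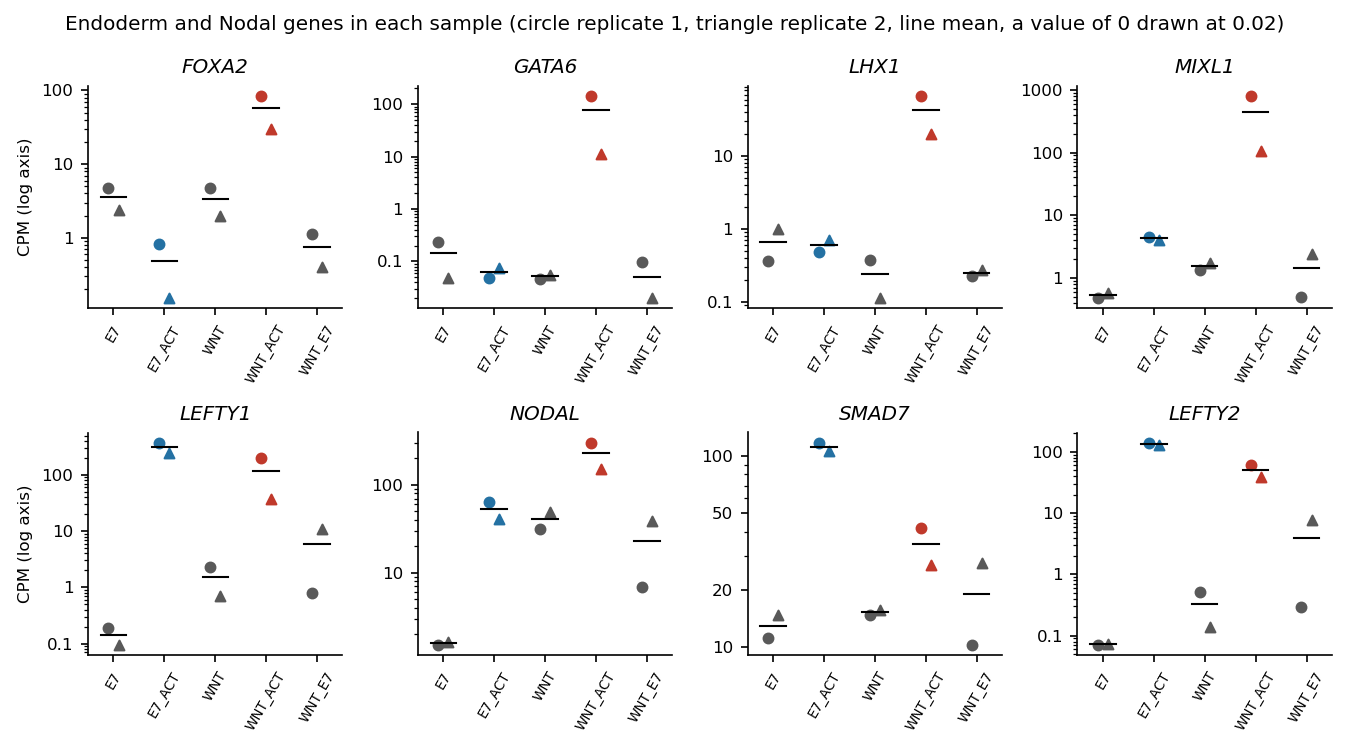
CPM on log axes in the 2 samples of each group for 4 streak and endoderm genes (upper row) and 4 Nodal pathway genes (lower row); a value of 0 is drawn at 0.02. FOXA2, GATA6, LHX1 and MIXL1 are highest in WNT_ACT with replicate 1 above replicate 2, whereas LEFTY1 rises in both E7_ACT and WNT_ACT.

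Of the BMP genes, 3 of 28 tested were called in the contrast, beside 0.641% of all genes: BMP2 and CHRD above 0 and ID1 below 0. The count was 0 to 3 when 1 sample was left out. Without Wnt3a 10 rose and 1 fell (all genes 2.54% and 1.62%), and after it 6 rose and 0 fell (all genes 5.78% and 3.48%). ID3, a relative of ID1, had 115 and 162 in E7, 59.8 and 83.8 in E7_ACT, 178 and 256 in WNT and 111 and 203 in WNT_ACT CPM and a contrast of 0.44 (SE 0.45, adjusted p = 0.861), and it was not called in either arm. GATA2 and GATA3, factors that BMP signals raise in trophoblast and amnion, rose without Wnt3a, by 1.74 (SE 0.37, adjusted p = 0.0267) and 3.15 (SE 0.62, adjusted p = 0.0187). Their levels in E7_ACT were 1.13 and 1.17 CPM for GATA2 and 1.61 and 0.813 CPM for GATA3. Their contrasts were -2.05 (SE 0.6, adjusted p = 0.206) and -2.33 (SE 0.96, adjusted p = 0.432).

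Wnt pathway genes gave 0 calls among 43 tested in the contrast by edgeR, beside 0.641% of all genes. At an unadjusted p under 0.05 the list held 11 genes, beside 1757 of all 17793, and DESeq2 called 2 (TCF7 and FZD8). In the arms, 10 rose and 7 fell after Wnt3a (all genes 5.78% and 3.48%), and 5 rose and 7 fell without it (all genes 2.54% and 1.62%). AXIN2, a feedback target of beta-catenin, had 51.1 and 57.8 in E7, 18.1 and 23.8 in E7_ACT, 109 and 117 in WNT and 87.3 and 58.1 in WNT_ACT CPM; it fell without Wnt3a (-1.37 (SE 0.19, adjusted p = 0.00392)), had -0.65 (SE 0.19, adjusted p = 0.0564) after it, and had a contrast of 0.73 (SE 0.27, adjusted p = 0.35). LEF1, a TCF/LEF factor, fell in both arms, from 2.29 and 0.911 CPM in E7 to 0.434 and 0.229 in E7_ACT and from 21.6 and 14.2 in WNT to 3.93 and 2.80 in WNT_ACT. WNT3, a Wnt ligand, rose in both, from 0.454 and 0.408 CPM in E7 to 33.8 and 19.3 in E7_ACT and from 0.940 and 2.11 in WNT to 81.5 and 55.7 in WNT_ACT. The contrasts were -0.17 (SE 0.72, adjusted p = 0.982) for LEF1 and -0.42 (SE 1.26, adjusted p = 0.972) for WNT3.

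In the FGF and MAPK list 1 of 25 tested was called (2 by DESeq2), beside 0.641% of all genes by edgeR. It was DUSP4, a phosphatase that switches off MAP kinases. DUSP4 had 8.29 and 12.3 in E7, 3.16 and 4.9 in E7_ACT, 14.5 and 19.6 in WNT and 19.9 and 23.9 in WNT_ACT CPM: it fell without Wnt3a (-1.35 (SE 0.22, adjusted p = 0.0072)) and had a contrast of 1.73 (SE 0.3, adjusted p = 0.0368). FGF8, a ligand of the streak, had 0.143 and 0.12 in E7, 5.45 and 3.58 in E7_ACT, 0.188 and 0.337 in WNT and 26.1 and 14.9 in WNT_ACT CPM and a contrast of 1.21 (SE 2.25, adjusted p = 0.945). FGF17, of the same subfamily, was at or under 0.143 CPM outside WNT_ACT, where it had 204 and 71.3 CPM.

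Pluripotency genes fell mainly after Wnt3a: 11 of 31 tested fell and 2 rose in that arm, and without Wnt3a 2 fell and 2 rose. Over all genes tested, 3.48% fell and 5.78% rose after Wnt3a, and 1.62% fell and 2.54% rose without it. In the contrast 3 were called (9 by DESeq2), among them NANOG and DNMT3B, both below 0, beside 0.641% of all genes by edgeR. The list median was -0.48. NANOG, a homeobox factor of the undifferentiated state, had 71.7 and 113 in E7, 235 and 318 in E7_ACT, 138 and 197 in WNT and 187 and 251 in WNT_ACT CPM. It rose without Wnt3a (1.6 (SE 0.16, adjusted p = 0.000877)) and had 0.39 (SE 0.16, adjusted p = 0.16) after it, from a level already higher in WNT, for a contrast of -1.21 (SE 0.23, adjusted p = 0.0476). The adjusted p of NANOG was 0.0639 with DESeq2 size factors and 0.07 with the stricter filter. NANOGP8, a near-identical copy, was called too (-1.16), and reads of the 2 genes may be split between them. DNMT3B, a DNA methyltransferase, had 2312 and 2912 in E7, 3088 and 3431 in E7_ACT, 2092 and 2593 in WNT and 1595 and 1799 in WNT_ACT CPM and a contrast of -0.79 (SE 0.14, adjusted p = 0.0383), with adjusted p = 0.0515 with DESeq2 size factors and 0.0637 with the stricter filter. POU5F1 (OCT4) had 484 and 636 in E7, 882 and 979.5 in E7_ACT, 586 and 724 in WNT and 690.4 and 815 in WNT_ACT CPM and a contrast of -0.54 (SE 0.12, adjusted p = 0.087), and SOX2 had 278 and 357 in E7, 282 and 346 in E7_ACT, 315 and 389.7 in WNT and 155 and 318 in WNT_ACT CPM and a contrast of -0.61 (SE 0.25, adjusted p = 0.424).

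Of the lists that remain, the epithelial to mesenchymal list had 1 of 26 called (3 by DESeq2), MMP14, a matrix protease. The cardiac and lateral mesoderm list had 2 of 14 (3 by DESeq2), BMP2 and SMARCD3, a subunit of the BAF chromatin complex. Over all genes tested, edgeR called 0.641%. Of the 3 apelin genes tested, 1 was called by edgeR, APLNR, and 2 by DESeq2, APLNR and APELA (adjusted p = 0.00862 for APELA). MMP14 had 95.5 and 110.1 in E7, 106 and 138 in E7_ACT, 79.6 and 97.5 in WNT and 196 and 182 in WNT_ACT CPM and a contrast of 0.87 (SE 0.15, adjusted p = 0.0383) (0.0553 with only the groups compared), and SMARCD3 had 4.46 and 3.5 in E7, 2.94 and 3.58 in E7_ACT, 3.83 and 2.81 in WNT and 16.8 and 9.04 in WNT_ACT CPM and a contrast of 2.21 (SE 0.39, adjusted p = 0.0383). In each of the other 9 lists, 0 were called by edgeR: neuroectoderm (22 tested), trophoblast and amnion (11), extraembryonic endoderm (10), fibroblast (6), blood and endothelium (11), cholesterol synthesis (22), p53 targets (16), S phase (15) and, last, G2 and M phase (18). At an unadjusted p under 0.05 these lists held, in that order, 6, 4, 1, 3, 0, 3, 4, 4 and 2 genes. Over all genes, 1757 of 17793 were past that threshold. DESeq2, which called more genes than edgeR over all genes too, called 2, 2, 0, 3, 0, 0, 0, 0 and 1. These DESeq2 counts cannot be set beside edgeR's 0.641%. As markers of other cells, the summed trophoblast and amnion list lay between 22.1 and 41.5 CPM over the 8 samples, fibroblast between 449 and 1063, blood and endothelium between 37.5 and 70.7, and extraembryonic endoderm between 346 and 552. Their part in the contrast was not tested.

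**Figure D5:**
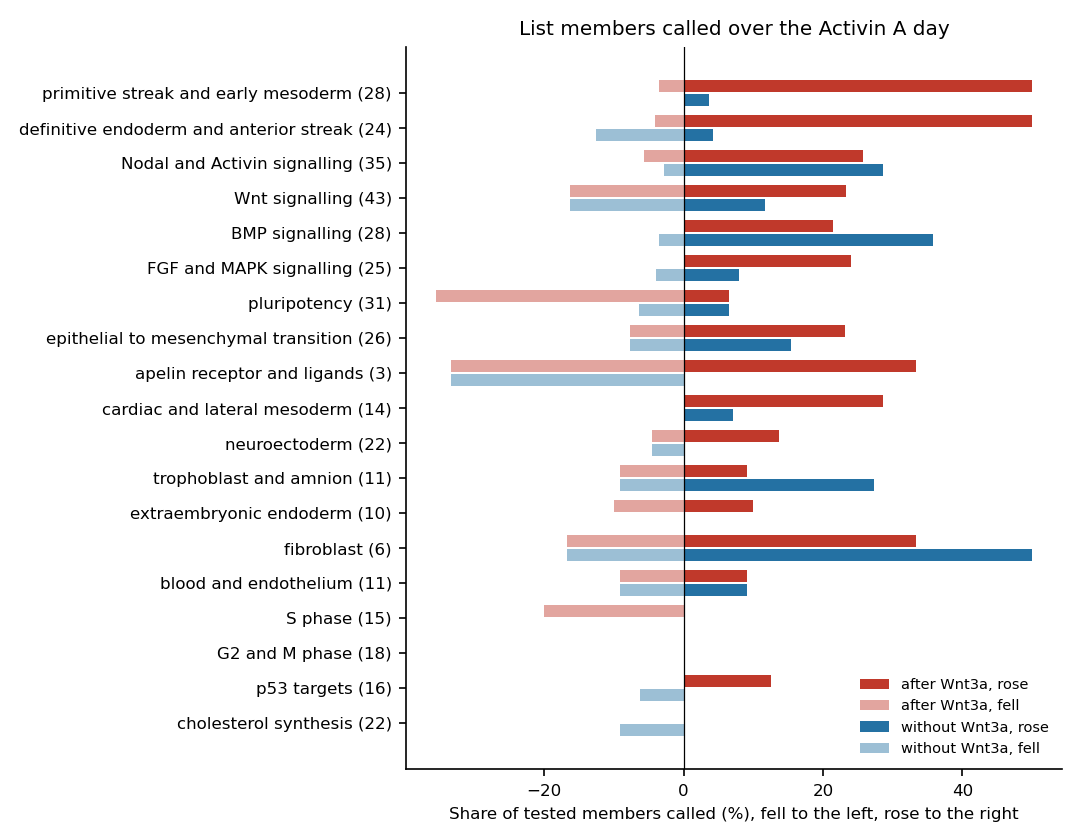
Share of the tested members of each list (number tested in brackets) that rose (right) or fell (left) over the Activin A day, after Wnt3a (red) and without it (blue). The streak and endoderm lists reach 14 of 28 and 12 of 24 risen after Wnt3a against 1 and 1 without it, and in the Nodal and Activin list 9 of 35 rose after Wnt3a and 10 without it. Over all genes tested, 5.78% rose after Wnt3a and 2.54% without it.

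Against medium alone for the same 48 h, the Activin A day after Wnt3a was read without the time difference, in WNT_ACT minus WNT_E7. There 1130 genes were called (6.35%), 712 higher (4.0%) and 418 lower (2.35%) in WNT_ACT. The medium day itself, WNT_E7 minus WNT, had 7 calls (0.0393%), all lower. WNT_ACT is shared with the contrast, so these values stand side by side and do not support each other. For APLNR the difference from medium was 4.26 (SE 0.44, adjusted p = 0.00101), for EOMES 5.43 (SE 0.53, adjusted p = 0.000898) and for BMP2 4.35 (SE 0.68, adjusted p = 0.00588). For LRAT it was -2.11 (SE 0.18, adjusted p = 0.000823). EOMES had 8.52 and 2.87 CPM in WNT_E7, below both WNT samples, so its rise was larger against medium than against the 24 h samples. ID1 had 0.26 (SE 0.23, adjusted p = 0.573) and PCSK5 -0.3 (SE 0.12, adjusted p = 0.173), with WNT_E7 at 15.6 and 42.1 CPM and at 16 and 15.4 CPM. Of the streak genes, 16 of 28 were higher and 0 lower in WNT_ACT than in WNT_E7, and of the endoderm genes 10 of 24 were higher and 0 lower.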

How the data were processed

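The authors deposited raw counts per gene for the RNA samples, 1 table per replicate number, made with featureCounts per the submitters' processing notes. For these counts, the aligner and genome build are not given in the sources used here. The deposited list of ATAC positions holds no sample or signal column and was not used. Of 27348 genes in both tables, 27322 took a RefSeq symbol. E7_CPI replicate 1 was left out because its values were out of step with the gene rows (highest absolute Spearman correlation with any other sample 0.0071), which leaves 15 samples in the fit. Counts were filtered with filterByExpr, scaled by TMM (factors 0.945 to 1.047) and fitted with edgeR 4.0.16 and limma 3.58.1 in R 4.3.3, by the quasi-likelihood F-test (2-sided), with group and replicate number as terms and 6 residual degrees of freedom. Benjamini-Hochberg adjustment ran over 17793 genes, with calls made below an adjusted p of 0.05. The SE was derived from the F statistic.

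Same-numbered samples deviated from their group means together (r = 0.713 to 0.899 over the 6 pairs of the 4 groups, 0.456 to 0.899 over 21 pairs in all), so the replicate numbers pair the samples. The biological coefficient of variation was 0.122 with the block and 0.29 without it. In counts simulated at these means, a contrast of 2-fold was recovered for 46% of 50 genes, 4-fold for 78%, 8-fold for 90% and 16-fold for 88%, among 17613 genes, and 6 unchanged genes were called. The simulated counts were drawn from the fitted means and spread of each gene, so these rates hold only if that model is true.

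Genes were named by this rule: EOMES and APLNR, then the 12 largest contrasts in each direction among called genes with the same sign in both replicates, a mean of at least 5 CPM in at least 1 of the 4 groups and a RefSeq symbol that does not begin with LOC or LINC, then up to 4 called members of each list, and other list members where their role was needed. The values of 2 list members are not reported here. The members and the 19 lists were chosen with earlier results of these data known. The alternatives were no block, DESeq2's test and size factors, library totals, a stricter filter or none, only the groups compared, and leaving out each sample. Leaving out the CPI-203 groups was added after the data were seen. Depth limits genes under about 1 CPM, where a sample holds few counts.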

Additional observations from a re-analysis of the deposited data

Results flagged for a closer look

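No comparison here reads the group WNT_CPI_ACT, whose cells had CPI-203 beside Wnt3a on day 1 and Activin A on day 2. Of 25 genes (the 2 markers and the largest contrasts), 3 stood higher in both its samples than in any of the 8 contrast samples. APLNR had at least 53.6 CPM there, against at most 51.5 CPM in the 8 samples. FOXB1 had at least 67.4 CPM, against at most 32.0. LRAT had at least 102.0 CPM, against at most 96.7. None of these differences was tested. The share of all genes with this pattern was not counted, so the 3 cannot be judged against it. Groups of 2 samples are too small for a test of single outlying samples.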

How the results depend on the processing

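The count of calls in the contrast was 114, and it was 1 with no replicate block, 233 with only the groups compared, 226 without the CPI-203 groups and 399 with DESeq2, and 12 to 225 when 1 sample was left out; the other scalings and filters kept it within 1.5 times. After Wnt3a the count of 1648 became 112 with no replicate block and 196 to 1246 with a sample left out, and without Wnt3a the 741 became 50, 109 to 226, and 1264 with DESeq2. Against medium the 1130 became 22 with no block, 124 to 1061 with a sample left out, and 1726 with DESeq2. The 7 calls of the medium day became 0 with no block (edgeR; 316 genes at an unadjusted p under 0.05), 32 with only the groups compared, 1 without the CPI-203 groups, 62 with DESeq2, and 1 to 6 with a sample left out. Leaving out a sample left 1 sample in its group, assumed to vary like the others. Signs turned for 6 genes, none of them called; with a sample left out their contrasts ran from -0.089 (without WNT_ACT replicate 1) to 1.02 for CDH2, from -1.12 (without E7_ACT replicate 1) to 3.04 for CER1, from -0.29 (without WNT_ACT replicate 1) to 1.07 for EOMES, from -0.65 to 0.15 (without E7 replicate 2) for LEF1, from -0.83 (without E7_ACT replicate 1) to 4.49 for SP5, and from -0.97 to 0.33 (without WNT replicate 2) for WNT3. With DESeq2 the contrast of CER1 was -10.79. The 31 called genes kept their direction in every alternative run. Of the 24 genes named by size, SEMA6D, LRAT and PCSK5 kept their call in all 8 fits with a sample left out, CD48, BMP2, GABRB2, WSCD2, TENM4, CDH6 and TMT1A in 1 of 8, LPAR6 and MSC in 0 of 8, and the others in 2 to 5 of 8. The contrast of BMP2 ran from 3.47 to 5.90 over these fits. The cause of these shifts was not tested.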
